A study of Mus musculus with 6 samples.

Results

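The transcripts described here are those of the mouse mitochondrial genome: the 28 rows of the deposited count table, of 17872 in all, whose gene symbol starts with mt-. They comprise 13 mRNAs, 2 rRNAs and 13 tRNAs. The reference annotation lists 37 mitochondrial genes, 13 for mRNAs, 2 for rRNAs and 22 for tRNAs, and the 9 tRNA genes without a row were not analysed here. Poly(A) RNA was sequenced from BV2, an immortalised mouse microglial line, in 3 libraries labelled Tfam knockout and 3 wild-type libraries. Tfam had been targeted with CRISPR-Cas9, and the labels' protocol states that cells were afterwards kept under puromycin at 2 µg/mL. The same protocol text stands on the wild-type samples, so whether they carried a control vector is not clear. Neither the clonal state of the edited cells nor the origin of the replicates (separate cultures or not) is in the labels. The p-values therefore reflect only how these libraries vary, which may be technical. The comparison asks how loss of Tfam changes the transcriptome of microglial cells.

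Mammalian mitochondrial DNA is transcribed into long RNAs that span many genes, from a heavy-strand promoter and a light-strand promoter in the control region. The long RNAs are cut at the tRNAs that separate most of the rRNA and mRNA segments. The heavy-strand promoter side meets mt-Tf and the rRNA genes mt-Rnr1 and mt-Rnr2 first and holds nearly all mRNAs. The light-strand promoter side meets mt-Tp first and holds mt-Nd6 as its only mRNA. The protein TFAM coats mitochondrial DNA and bends it at these promoters so that the mitochondrial RNA polymerase can start. All proteins coded by mitochondrial DNA are subunits of the respiratory chain or of ATP synthase.

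Total counts ran from 13850691 to 20889786 in the labelled knockout libraries and from 14642397 to 28418133 in wild type. Levels are given in CPM, counts per 1e+06 counts scaled with TMM factors, and changes as log2 fold changes of labelled knockout over wild type. Tfam mRNA did not show the knockout: it was at 40.9, 42.6 and 43.1 CPM in the labelled knockout libraries and 39.0, 38.5 and 37.0 CPM in wild type, a log2 fold change of 0.14 ± 0.0869 (SE; adjusted p = 0.193, edgeR quasi-likelihood test). It was called higher with library totals (0.24, adjusted p = 0.0405, edgeR) and with the authors' log2 table (0.25, adjusted p = 0.0342, limma), and over its 16 alternatives the adjusted p ran from 0.0342 to 0.761. Every labelled knockout library lay above every wild-type library. Gene-level counts do not show small edits of the coding sequence, and the groups are named by their labels throughout. Of 12 microglial markers 10 had a row, with a summed level of 1250.5 to 1336 CPM in labelled knockout and 1720 to 1776 CPM in wild type. They did not move together: Csf1r (-1.46), Trem2 (-0.83) and Tyrobp (-0.83) were among those called lower, Adgre1 (0.61) was called higher, and Ptprc (-0.06) was not called. Tmem119 and Sall1, markers of microglia in the brain, averaged at most 0.52 CPM in either group, and P2ry12 and Itgam have no row in the table used here. Summed neuronal, astrocytic and endothelial markers stayed at or below 5.91 CPM in every library, and the oligodendrocyte markers were at 11.5 to 13.9 CPM in labelled knockout and 24.4 to 25.1 CPM in wild type, mostly Mbp. The part of these differences in the results was not tested.

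The 5 tRNA genes with the most counts are printed here because the results by strand and by distance from the promoters turn on them. Each is the annotated transcript of GENCODE M21 (GRCm38, mitochondrial chromosome), read 5′ to 3′ in DNA letters, and the capitals mark the anticodon.
mt-Tl1: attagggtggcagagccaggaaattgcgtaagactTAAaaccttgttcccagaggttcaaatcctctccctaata
mt-Tn: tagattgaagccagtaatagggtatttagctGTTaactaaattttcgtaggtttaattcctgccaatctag
mt-Tc: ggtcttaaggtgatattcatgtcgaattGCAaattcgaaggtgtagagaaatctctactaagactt
mt-Tl2: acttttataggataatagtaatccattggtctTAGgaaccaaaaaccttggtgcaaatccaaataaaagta
mt-Tp: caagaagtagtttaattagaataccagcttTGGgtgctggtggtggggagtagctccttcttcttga
mt-Tl1 and mt-Tl2 are leucine tRNAs of the heavy-strand promoter side. mt-Tn (asparagine), mt-Tc (cysteine) and mt-Tp (proline) lie on the light-strand promoter side. They are 66 to 75 bases long. The authors' build was GRCm39, so no coordinates are given and only gene order, length and strand were taken from the reference. The library kit does not mark strand, so reads of a tRNA and of an RNA from the opposite strand across it cannot be told apart.

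Mitochondrial transcripts were lower in the labelled knockout libraries in every RNA class, but by unequal amounts. Mean CPM was lower for all 28 rows (48.9% of all rows of the table were lower). The 24 rows that passed the filter on low counts were all called lower at an adjusted p below 0.05 (edgeR). Of the 13403 tested genes 44.2% were called, 22.9% as lower. In 23 of the 24 every labelled knockout library lay below every wild-type library, and the exception was mt-Rnr1. Among all tested genes 52.9% had no overlap between groups, and 26.6% had it with labelled knockout as the lower one. At least 2-fold lower were 21 of the 24 (5.54% of tested genes). The 4 untested rows were mt-Atp8, mt-Ti, mt-Ta and mt-Tt. Of the 24, 5 passed the filter through wild type alone (mt-Tw, mt-Ty, mt-Nd3, mt-Ts2 and mt-Te), so that their being lower was partly fixed by the filter. With no filter, 24 of 28 were called lower (16.8% of all rows were), and the median log2 fold change was -1.81 over the 28 and 0.02 over all rows. By class the unfiltered medians were -1.82 for the mRNAs, -0.56 for the rRNAs and -1.80 for the tRNAs. In bulk RNA, fewer cells or mitochondria with a full supply of these transcripts and less of them in each cannot be told apart.

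The whole group took 1.41%, 1.42% and 1.37% of all counts in the labelled knockout libraries, against 3.52%, 4.31% and 3.53% in wild type. The groups did not overlap (1.40% ± 0.0299 in labelled knockout and 3.79% ± 0.456 in wild type, SD over 3 libraries). The two-sided exact permutation test gave p = 0.1, adjusted p = 0.125 over the 5 values tested per library, and with 3 libraries per group it cannot go lower than 0.1. Nearly all of these counts were mRNA, at 1.27% ± 0.0323 of all counts in labelled knockout and 3.61% ± 0.441 in wild type. The rRNAs took 0.123% ± 0.0089 in labelled knockout and 0.162% ± 0.0149 in wild type. The tRNAs took 0.0045% ± 0.0005 in labelled knockout and 0.0123% ± 0.0023 in wild type. Mature mitochondrial tRNAs carry no poly(A) tail and the rRNAs a short one, and the effect of poly(A) selection on these proportions was not tested. Whether reads on the tRNA rows came from mature tRNAs or from longer RNAs that span them was not tested either.

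**Figure D1:**
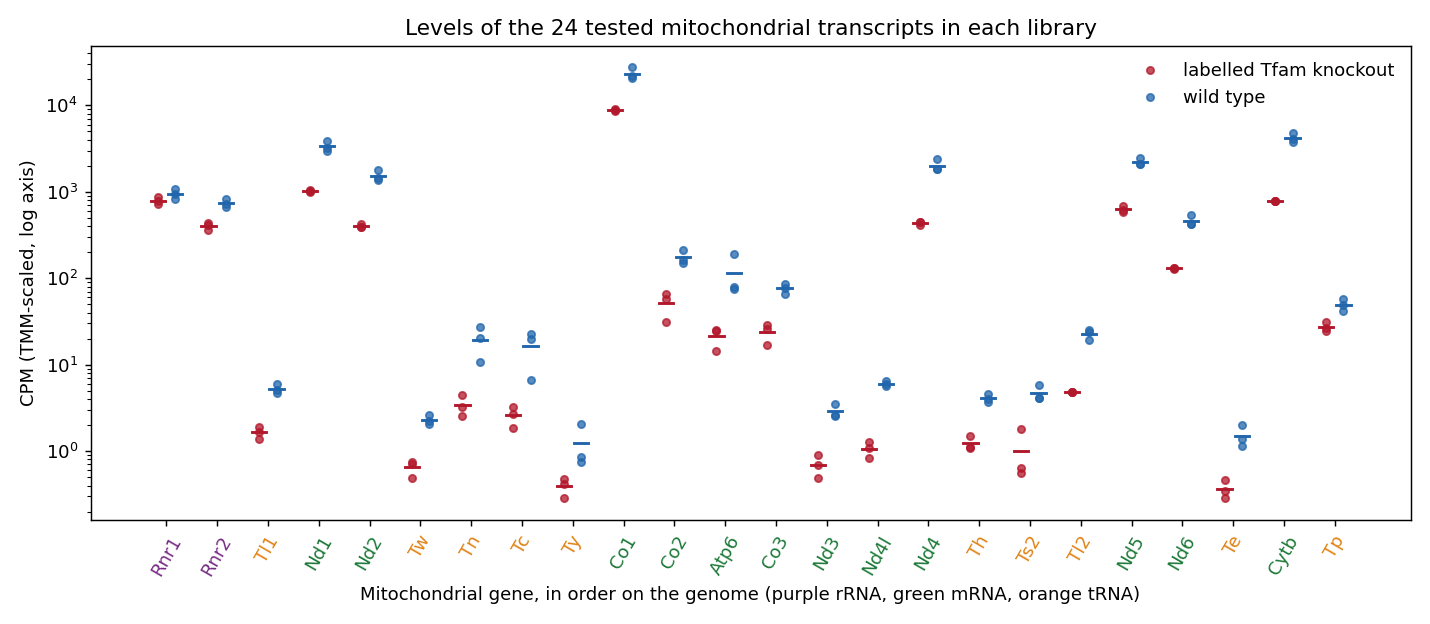
CPM (TMM-scaled, log axis) of the 24 tested mitochondrial transcripts in genome order, with 1 point per library and a bar at the mean, labelled Tfam knockout (red) left of wild type (blue). The groups overlap for mt-Rnr1, and for the other 23 transcripts every labelled knockout library lies below every wild-type library.

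The mRNAs of complex I, the NADH dehydrogenase, were all tested and all fell in the labelled knockout libraries. Among them mt-Nd3 passed the filter through wild type alone, and mt-Nd6 is described by strand below. mt-Nd1, the first mRNA of the heavy-strand promoter side, was at 1046, 988 and 1022 CPM in labelled knockout, against 3195, 3850 and 2994 CPM in wild type. Its log2 fold change was -1.72 ± 0.101 (adjusted p = 6.31e-10, edgeR), which left 30.4% of the wild-type level. mt-Nd2 (-1.94 ± 0.102), mt-Nd4 (-2.20 ± 0.109) and mt-Nd5 (-1.83 ± 0.0972) were similarly lower, with no overlap between groups. The subunit mRNAs mt-Nd3 and mt-Nd4l had few counts, 19, 12 and 7 in labelled knockout against 71, 54 and 37 in wild type for mt-Nd3, and 27, 19 and 12 against 183, 91 and 81 for mt-Nd4l, with log2 fold changes of -2.01 ± 0.354 and -2.48 ± 0.255.

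mt-Cytb, the subunit of complex III and the last mRNA of the heavy-strand promoter side, was among the mRNAs that fell most. It was at 779.6, 785 and 778 CPM in labelled knockout, against 4039, 4807 and 3808 CPM in wild type. The labelled knockout libraries lay close together (SD 3.48 CPM), at 18.5% of the wild-type level (log2 fold change -2.43 ± 0.102, adjusted p = 7.46e-12, edgeR).

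The mRNAs of complex IV, cytochrome c oxidase, included the most abundant transcript and the mRNA that fell least. mt-Co1, the catalytic subunit, was at 9022, 8881 and 8543 CPM in labelled knockout, against 20654, 27457 and 21802 CPM in wild type (log2 fold change -1.40 ± 0.119, adjusted p = 5.98e-08, edgeR). It held 65.1% ± 0.636 of the mitochondrial counts in labelled knockout and 59.2% ± 0.965 in wild type, with no overlap. mt-Co2 (-1.77 ± 0.186) and mt-Co3 (-1.67 ± 0.151) also fell. Of the ATP synthase mRNAs, mt-Atp6 was at 24.8, 14.4 and 25.1 CPM in labelled knockout, against 79.0, 189.5 and 75.1 CPM in wild type. Wild-type replicate 2 was the high library, and without it the log2 fold change of -2.41 ± 0.279 became -1.84. mt-Atp8, which overlaps mt-Atp6 by 43 bases, had 7, 3 and 4 counts in labelled knockout and 14, 19 and 11 in wild type and did not pass the filter. With no filter it was at -1.61 (adjusted p = 0.0579, edgeR), and over the alternatives that tested it the adjusted p ran from 0.0177 without wild-type replicate 1 to 0.104 without labelled knockout replicate 2.

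The rRNAs fell less than any mRNA called. mt-Rnr1, the RNA of the small mitochondrial ribosomal subunit, was at 872, 724 and 774 CPM in labelled knockout, against 832, 1064 and 940.0 CPM in wild type. The groups overlapped: labelled knockout replicate 1 lay above wild-type replicate 1. The call for mt-Rnr1 (-0.26 ± 0.0986, adjusted p = 0.0412, edgeR) was lost in 8 of the 16 alternatives tried, among them without wild-type replicate 2 or 3, without labelled knockout replicate 2 or 3, with library totals, with the authors' log2 table and with offsets for length and GC content. Over its alternatives the adjusted p ran up to 0.245, and the sign stayed negative in each of the 16. mt-Rnr2, the RNA of the large subunit, was at 431, 361 and 413 CPM in labelled knockout, against 662, 826 and 728 CPM in wild type, with no overlap (-0.88 ± 0.0943, adjusted p = 1.07e-06, edgeR).

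Ratios between classes inside a library do not depend on how libraries are scaled. The log2 ratio of summed mRNA to summed rRNA counts was 3.27, 3.51 and 3.33 in the labelled knockout libraries, against 4.51, 4.53 and 4.38 in wild type. The difference was -1.10 with no overlap (exact two-sided permutation p = 0.1, n = 3 each, adjusted p = 0.125). The rRNAs made up 8.80% ± 0.677 of the mitochondrial counts in labelled knockout and 4.30% ± 0.237 in wild type. The rRNAs also differed from each other. The log2 ratio of mt-Rnr2 to mt-Rnr1 was -1.015, -1.002 and -0.906 in labelled knockout, against -0.331, -0.366 and -0.370 in wild type, a difference of -0.62 with no overlap (exact two-sided permutation p = 0.1, adjusted p = 0.125).

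**Figure D2:**
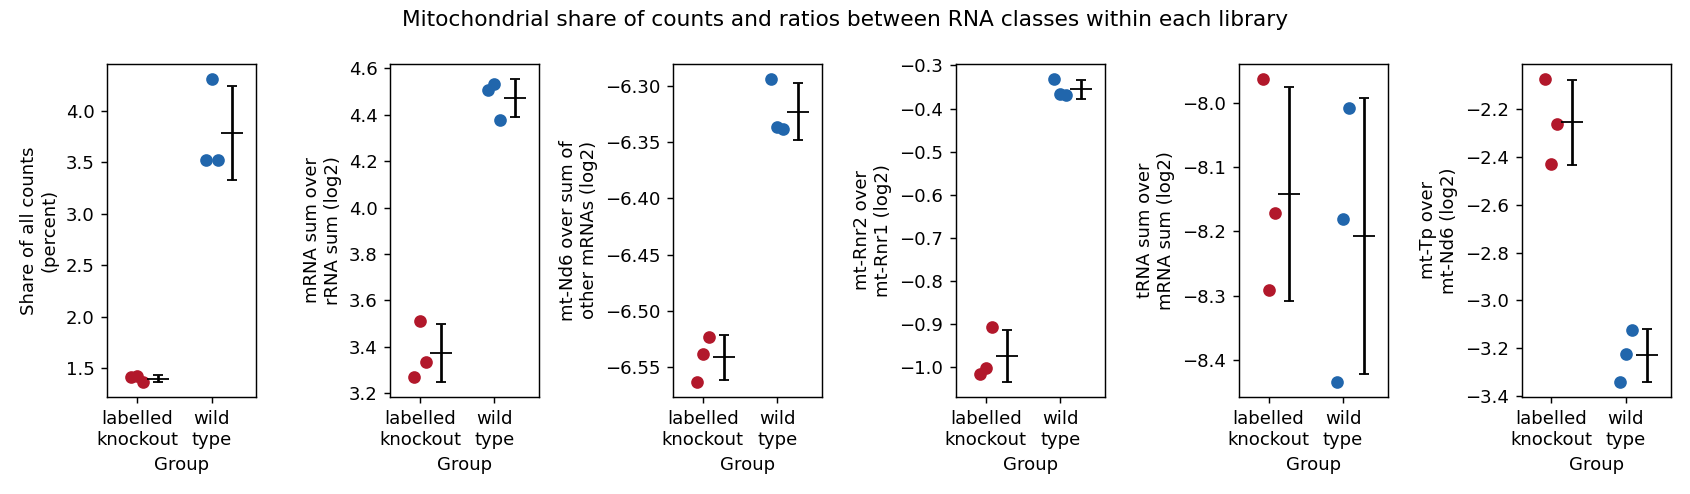
The mitochondrial share of all counts (percent) and 5 log2 ratios of counts within a library, with 1 point per library and the mean ± SD in black, labelled knockout (red) left of wild type (blue). The y axes differ between panels and do not start at 0. The groups overlap only for the ratio of tRNA to mRNA.

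Of the 13 tRNA rows 10 were tested, and all 10 were called lower (22.9% of all tested genes were). Among them, mt-Tw, mt-Ty, mt-Ts2 and mt-Te passed the filter through wild type alone. How the tRNAs compared with the mRNAs depended on mt-Tp, the tRNA with the most counts. Summed tRNA over summed mRNA counts had log2 ratios of -7.96, -8.29 and -8.17 in labelled knockout, against -8.43, -8.18 and -8.01 in wild type. The groups overlapped, and the difference of 0.07 lay within the spread between replicates (SD 0.17 in labelled knockout and 0.21 in wild type; exact two-sided permutation p = 0.7). Without mt-Tp the log2 ratios were -9.36, -9.68 and -9.67 in labelled knockout, against -9.24, -8.87 and -8.65 in wild type, a difference of -0.65 with no overlap, given with no test since mt-Tp was left out after its values were seen. On the heavy-strand promoter side, mt-Tl2 was at 4.81, 4.88 and 4.81 CPM in labelled knockout, against 19.4, 23.9 and 25.3 CPM in wild type (-2.23 ± 0.144, adjusted p = 2.02e-09, edgeR). mt-Tl1, which lies between mt-Rnr2 and mt-Nd1, was at 1.89, 1.38 and 1.67 CPM in labelled knockout, against 4.76, 6.05 and 5.09 CPM in wild type (-1.67 ± 0.250, adjusted p = 3.78e-05, edgeR). The histidine tRNA mt-Th (-1.72 ± 0.279), the tryptophan tRNA mt-Tw (-1.81 ± 0.359) and the serine tRNA mt-Ts2 (-2.16 ± 0.360) were called too. For mt-Ts2, labelled knockout replicate 1 was the high library of its group, and without it the log2 fold change was -2.95.

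On the light-strand promoter side, the neighbours mt-Tc and mt-Tn had the largest decreases of the 10 tested tRNAs in the fit to all libraries. Without labelled knockout replicate 1 mt-Ts2 was lower (-2.95) than mt-Tc (-2.83), and without wild-type replicate 2 mt-Ts2 (-2.23) and mt-Tl2 (-2.19) were lower than mt-Tn (-2.13). mt-Tn was at 4.48, 3.21 and 2.58 CPM in labelled knockout, against 10.9, 27.0 and 20.5 CPM in wild type (-2.45 ± 0.277, adjusted p = 1.85e-06, edgeR). mt-Tc was at 3.25, 1.84 and 2.72 CPM in labelled knockout, against 6.61, 22.7 and 20.1 CPM in wild type (-2.61 ± 0.359, adjusted p = 1.56e-05, edgeR). Wild-type replicate 1 was the low library of its group for both genes, yet lay above every labelled knockout library. The glutamate tRNA mt-Te (-2.07 ± 0.443) was called as well. The tyrosine tRNA mt-Ty (-1.58 ± 0.516) had 10, 5 and 6 counts in labelled knockout and 21, 32 and 12 in wild type, and its call was lost without wild-type replicate 2 (-0.98, adjusted p = 0.186, edgeR), without labelled knockout replicate 2 (-1.40, adjusted p = 0.0744, edgeR) and with the offsets for length and GC content (-0.74, adjusted p = 0.226, edgeR).

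mt-Tp stood apart from the other tRNAs. It was at 31.3, 24.4 and 26.8 CPM in labelled knockout, against 42.1, 57.2 and 48.6 CPM in wild type, with no overlap (-0.83 ± 0.120, adjusted p = 2.51e-05, edgeR). It held 62.1%, 61.9% and 64.6% of the tRNA counts in labelled knockout, against 42.9%, 37.9% and 36.1% in wild type. Against mt-Nd6, from the same promoter side, its log2 ratio was -2.07, -2.43 and -2.26 in labelled knockout and -3.34, -3.23 and -3.12 in wild type. These mt-Tp ratios were chosen after its values were seen and are given with no test. Reads of mt-Tp and of RNA from the opposite strand across it cannot be told apart. With the offsets for length and GC content, for which 13 genes of 80 bases or fewer were available, 10 of them the mitochondrial tRNAs themselves, mt-Tp was at -0.15 (adjusted p = 0.247, edgeR).

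By strand, mt-Nd6 did not separate from the other mRNAs in a way that held. It was at 131.7, 131.7 and 128.8 CPM in labelled knockout, against 427, 536 and 424 CPM in wild type (-1.82 ± 0.0918, adjusted p = 8.1e-11, edgeR). The log2 ratio of mt-Nd6 to the sum of the other mRNAs was -6.56, -6.54 and -6.52 in labelled knockout, against -6.29, -6.34 and -6.34 in wild type. That difference of -0.22 (exact two-sided permutation p = 0.1, n = 3 each, adjusted p = 0.125) turned to 0.15 with the mean of the log2 counts in place of the sum, and to 0.25 without the mRNAs that have a nuclear copy. The sum is mostly mt-Co1, the mRNA that fell least. Without the mRNAs that have a nuclear copy, the sum holds only mt-Nd1, mt-Cytb and the few counts of mt-Atp8. Of these, mt-Cytb was among the mRNAs that fell most (-2.43). As the library kit does not mark strand, reads of mt-Nd6 and of RNA from the opposite strand across it cannot be told apart. mt-Nd5 and mt-Nd6 overlap by 14 bases on opposite strands, and their log2 ratio was -2.21, -2.37 and -2.18 in labelled knockout and -2.30, -2.21 and -2.31 in wild type, with overlap between the groups.

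By order, the rows nearest to either promoter fell least, the rRNAs on the heavy-strand and mt-Tp on the light-strand promoter side. No other rRNA exists on this genome, so the position and the RNA class of the rRNAs cannot be told apart. Along the heavy-strand promoter side the log2 fold changes of the first tested genes were -0.26 for mt-Rnr1, -0.88 for mt-Rnr2, -1.67 for mt-Tl1, -1.72 for mt-Nd1 and -1.94 for mt-Nd2. With the offsets for length and GC content the same values were -0.13, -0.81, -1.04 and -1.62 for mt-Rnr1, mt-Rnr2, mt-Tl1 and mt-Nd1, so the size of the drop between neighbours depends on that setting. Without offsets, the log2 ratio of mt-Nd1 to mt-Rnr2 was 1.34 ± 0.0934 in labelled knockout and 2.18 ± 0.121 in wild type, while that of mt-Tl1 to mt-Nd1 was -9.29 ± 0.188 in labelled knockout and -9.30 ± 0.0958 in wild type (SD, n = 3 each, no test). The log2 ratio of the last mRNA to the first, mt-Cytb to mt-Nd1, was -0.42, -0.33 and -0.39 in labelled knockout, against 0.34, 0.32 and 0.35 in wild type. mt-Co1, in the middle, went the other way, with a log2 ratio to mt-Nd1 of 3.11 ± 0.052 in labelled knockout and 2.80 ± 0.0918 in wild type. Along the heavy-strand promoter side the log2 fold changes past mt-Nd2 did not fall steadily. In order they were -1.81 (mt-Tw), -1.40 (mt-Co1), -1.77 (mt-Co2), -2.41 (mt-Atp6), -1.67 (mt-Co3), -2.01 (mt-Nd3) and -2.48 (mt-Nd4l). Then came -2.20 (mt-Nd4), -1.72 (mt-Th), -2.16 (mt-Ts2), -2.23 (mt-Tl2), -1.83 (mt-Nd5) and -2.43 (mt-Cytb). Over the 18 tested genes of the heavy-strand promoter side, the rRNAs among them, Spearman's rho between order and log2 fold change was -0.71. Over the 11 tested mRNAs of that side it was -0.58. These are descriptions, since the genes share a transcript and the same libraries. Among the genes, mt-Tw, mt-Nd3 and mt-Ts2 passed the filter through wild type alone, so that their low values were partly fixed by it. The rho over 18 genes was -0.46 with the offsets for length and GC content. On the light-strand promoter side mt-Tp, the first gene, was at -0.83, and the next ones were mt-Te at -2.07 and mt-Nd6 at -1.82. Further on, mt-Ty was at -1.58, mt-Tc at -2.61 and mt-Tn at -2.45. Past mt-Tp the values did not fall steadily with order.

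**Figure D3:**
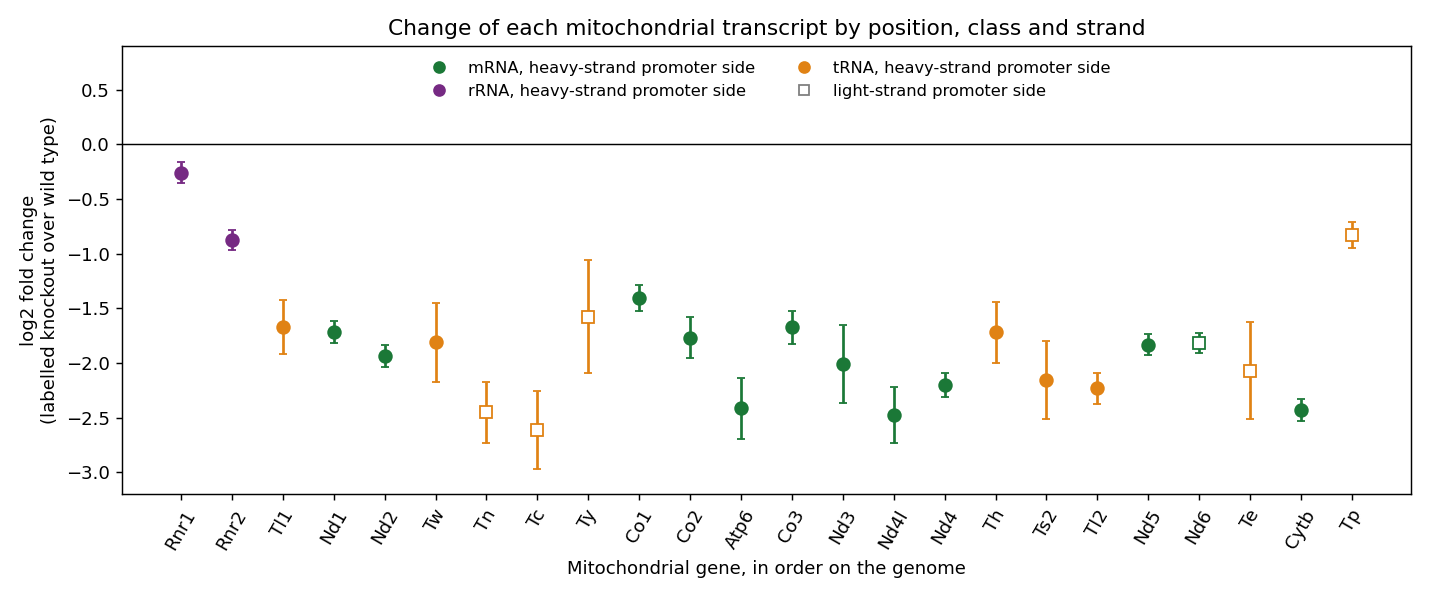
Log2 fold change (labelled knockout over wild type, ± SE from edgeR) of the 24 tested transcripts in genome order, coloured by RNA class, with filled circles for the heavy-strand and open squares for the light-strand promoter side. The values nearest to 0 are mt-Rnr1 (-0.26), mt-Tp (-0.83) and mt-Rnr2 (-0.88), which lie at the ends of the map.

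Levels compared between genes are uncertain for the mRNAs with a copy in the nuclear genome. By BLAST against the reference transcripts (at least 95% identity over at least 100 bases) 9 of the 13 mRNAs and neither rRNA had a copy, and the tRNAs are too short for that rule. With a minimum of 50 bases no tRNA had one among these transcripts. Genome sequence outside annotated transcripts was not searched, so a copy there would have been missed. For mt-Co2, mt-Atp6, mt-Co3, mt-Nd3 and mt-Nd4l the copy spanned at least 98.99% of the gene at 99.71% identity or more. Per kilobase of gene these 5 mRNAs averaged 75.004, 31.4, 30.5, 1.98 and 3.59 CPM in labelled knockout and 256, 168, 97.3, 8.29 and 20.4 CPM in wild type. The mRNAs with no copy or a partial or less similar one, apart from mt-Atp8, ranged from 252 (mt-Nd6) to 5706 CPM per kilobase (mt-Co1) in labelled knockout and from 890 to 15084 in wild type. mt-Atp8, with no copy found by this search, was lower than all of these. It was at 1.28 CPM per kilobase in labelled knockout and 4.10 in wild type. The part of nuclear copies in the low counts per length was not tested. The treatment of multi-mapping reads by the counting step was not stated in the labels.

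The nuclear copies listed as predicted genes fell as well. Of 8 with a row 7 were tested and all 7 were called lower (edgeR; 22.9% of all tested genes were), with log2 fold changes from -1.13 (Gm10222) to -2.33 (Gm28439). Gm28438, the copy of mt-Nd3, had 393, 343 and 265 counts in labelled knockout and 1424, 986 and 785 in wild type, more than the mt-Nd3 row in every library. Gm10222, the copy of mt-Nd4l, was at -1.13 ± 0.228 and mt-Nd4l at -2.48 ± 0.255, a difference that was not tested. Gm28437 (-1.69 ± 0.136) and mt-Co3 (-1.67 ± 0.151) were within 1 SE of each other. Reads of a gene and of an identical copy cannot be told apart in these counts.

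**Figure D4:**
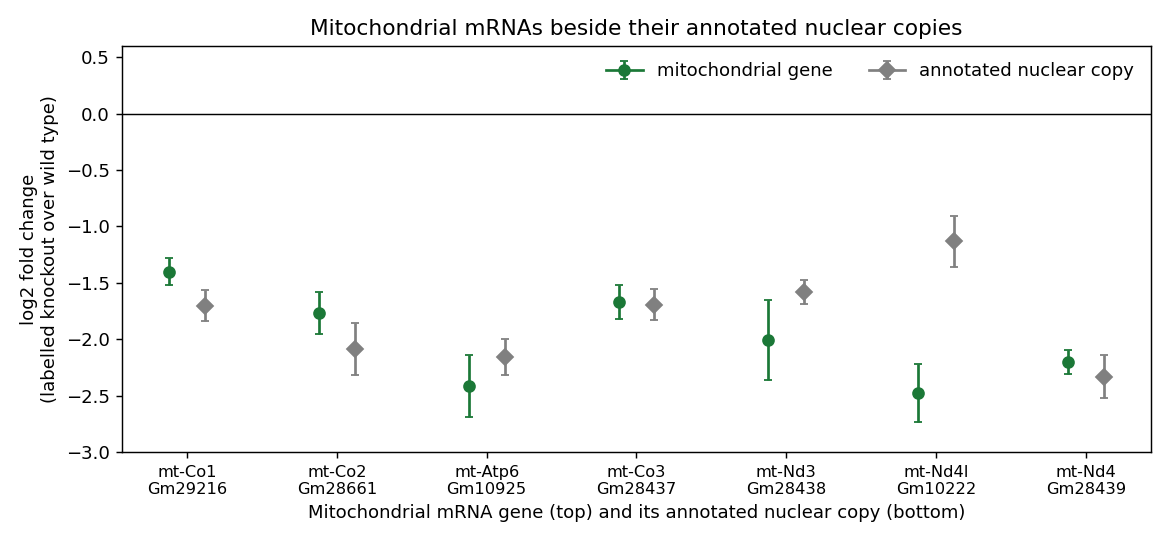
Log2 fold change (labelled knockout over wild type, ± SE from edgeR) of 7 mitochondrial mRNAs (green circles) beside that of an annotated nuclear copy (grey diamonds). All 14 values lie below -1.

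The nuclear genes that transcribe, process and maintain mitochondrial DNA and its RNA had log2 fold changes nearer to 0 than most mitochondrial transcripts. Of 38 listed genes 37 were tested, with a median log2 fold change of 0.11 (0.00 over all tested genes) and a range from -0.76 to 0.71. In labelled knockout 11 were called higher (21.3% of all tested genes were) and 4 lower (22.9% of all tested genes were), edgeR. The largest increases called were Fastkd3 (0.71) and Fastkd1 (0.46) of the FASTK family of mitochondrial RNA-binding proteins, the mitochondrial exonuclease Mgme1 (0.58) and Tfb1m, which methylates the small-subunit rRNA (0.58). The 4 that fell were the single-stranded DNA-binding protein Ssbp1 (-0.76), the RNase P subunit Hsd17b10 (-0.64), Fastk (-0.25) and the oligoribonuclease Rexo2 (-0.24). The polymerase Polrmt was higher at 0.30 ± 0.0927 (adjusted p = 0.0131, edgeR), and the transcription factor Tfb2m was at -0.07 ± 0.0943 (adjusted p = 0.588, edgeR). The count of 11 higher genes was 5 without wild-type replicate 3 and 6 without labelled knockout replicate 1 or 3, and the count of 4 lower genes was 2 with library totals, where Fastk and Rexo2 were not called. The call of Polrmt was lost without wild-type replicate 3.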

How the data were processed

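The main deposited table gives raw integer counts for each gene, and the deposited second table holds log2 values that, from the values, equal log2 of the count scaled to a common total plus 8. The submitters' processing notes name HISAT2 2.1.0, featureCounts 2.0.0, SAMtools 1.9 and bcl2fastq 2.17, and the build GRCm39. The unstranded NEBNext Ultra kit and poly(A) selection are per the labels' protocols. The test over the whole count table was edgeR 4.0.16 (R 4.3.3, group as the only term, TMM scaling, filterByExpr, glmQLFTest after glmQLFit, Benjamini-Hochberg over 13403 genes, called at adjusted p below 0.05). The filter kept genes at or above 0.609 CPM in at least 3 libraries, besides a minimum total count. A standard error is the size of the log2 fold change divided by the root of its F statistic. Values per library were compared with exact permutation tests (scipy 1.17.1), which cannot go below p = 0.1. Gene order, strand, lengths and sequences came from GENCODE M21 (GRCm38), and copies were sought with BLAST 2.17.0. The fit across all genes was tested on simulated data.

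Every mt- row could be named. Of the nuclear list, the called members that changed most were named, up to 4 in each direction and from 1 CPM upwards, and Polrmt, Tfb2m and the ratios given with no test were chosen after their values were seen. The members and lists were chosen with earlier results of these data known. Same-numbered replicates did not deviate together, so the samples were not treated as paired. With 3 libraries per group this cannot show whether the replicates were handled in pairs. Alternatives were DESeq2 1.42.0, limma-voom (limma 3.58.1), other scalings, no filter, a replicate block, limma applied to the log2 table (8 removed and a pseudocount of 1 added) and each library left out. Offsets for transcript length and GC content, a fit without the nuclear copies and the tRNA ratio without mt-Tp were added after the data were seen.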

Additional observations from a re-analysis of the deposited data

How the results depend on the processing

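The 24 tested members kept their negative sign in all 384 values from the 16 alternatives, and 372 of these were called. The number called lower ran from 22 to 25 when a library was left out (25 includes mt-Atp8, which then passed the filter) and was 21 with length and GC offsets, 23 with library totals or the authors' log2 table and 24 with DESeq2, limma-voom or no filter. In all, 21 members were called under every alternative, and the exceptions were mt-Rnr1, mt-Tp and mt-Ty. Of the 24, mt-Tw, mt-Ty, mt-Nd3, mt-Ts2 and mt-Te had passed the filter through wild type alone. Their sign and calls were therefore partly fixed by the filter. Same-numbered replicates correlated at -0.10, -0.11 and 0.04, and with the replicate block 23 members were called, mt-Rnr1 being lost (-0.26, adjusted p = 0.113), 1 rRNA was called lower and 7 nuclear genes of the mitochondrial RNA list higher. The rRNA count of 2 was 1 with library totals, the offsets or the authors' log2 table, and 1 to 2 with a library left out. The nuclear list's 11 higher genes ranged from 5 to 10 with a library left out and were 14 with library totals or the authors' log2 table, and its 4 lower genes were 2 with library totals or the authors' log2 table. Library totals moved the median of all genes by 0.10 (log2). The mRNA to rRNA difference of -1.10 was -1.21 per kilobase, -1.52 without mt-Co1 and -1.55 without members that have a nuclear copy. The difference in mt-Nd6 over the other mRNAs was -0.22. It reversed to 0.15 with the mean of log2 counts and 0.25 without members that have a nuclear copy. The full sum rests mostly on mt-Co1, and the sum without those members on mt-Nd1 and mt-Cytb. The tRNA to mRNA difference ran from -0.0477 to 0.17 with a library left out, -0.0477 without wild-type replicate 1 and -0.024 without labelled knockout replicate 1, and it was -0.65 without mt-Tp. Spearman's rho along the heavy-strand promoter side was -0.46 with the offsets and -0.75 to -0.60 with a library left out; the cause was not tested. Without members that have a nuclear copy the mitochondrial share differed by -0.62 percentage points, against -2.39 with them. Low counts limit what can be said of mt-Atp8, mt-Nd3, mt-Nd4l and most tRNA rows.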
